A study of Mus with 2 samples.

Results

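The 9 genes C1qa, C1qb, C1qc, Cd5l, Fcna, Axl, Mertk, Vcam1 and Mrc1 are complement, lectin, scavenging and cell-contact genes of tissue macrophages. They were found by their symbols among the 32285 gene rows of the deposited matrices, and all 9 were present. Bone marrow of mouse hindlimbs was profiled in 2 groups, called ground and running in the labels, with 1 droplet-based single-cell library per group. The labels give no strain, age, sex or number of mice, and no device, distance or duration of running. With 1 library per group no test between the groups is possible: intervals below are 95% intervals for counting error alone, and group, animal and preparation cannot be told apart.

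Tissue macrophages of the marrow clear dying cells, expelled erythroblast nuclei and aged red cells. C1qa, C1qb and C1qc encode the chains of C1q, the molecule that opens the classical complement pathway and that also coats apoptotic cells. Cd5l encodes a secreted scavenger-receptor protein of tissue macrophages, and Fcna encodes ficolin A, a secreted lectin of the complement lectin pathway. Axl and Mertk encode receptor tyrosine kinases that bind apoptotic cells through bridging ligands, Gas6 for both and protein S for Mertk. Vcam1 encodes an adhesion molecule that binds the integrin of Itga4 and Itgb1, and Mrc1 encodes the macrophage mannose receptor.

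All 9 genes matched RefSeq annotation of assembly GRCm38.p6, the assembly behind the build mm10. C1qb, C1qc and C1qa lie in that order on chromosome 4, between bases 136880126 and 136898844, a span of 18719 bases. Cd5l (87357881 to 87371074) and Vcam1 (116110020 to 116129688) lie on chromosome 3. Fcna (25624665 to 25635440), Mrc1 (14229414 to 14332023) and Mertk (128698915 to 128803162) lie on chromosome 2. Axl lies on chromosome 7, from 25756500 to 25788924.

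After filtering, 8666 ground and 9080 running cells remained, with median depths of 5938 and 5145.5 UMIs (unique molecular identifiers, 1 per captured transcript). The libraries shared 24 barcode sequences. Cells were grouped into 15 classes from marker genes, with the 9 genes left out of the clustering and of the naming. The macrophage-like class held 60 ground cells (0.692% of cells, interval 0.529 to 0.890) and 217 running cells (2.39%, 2.09 to 2.73), a ratio of 3.45 (2.60 to 4.59). Its leading genes were the haem and iron genes Hmox1 and Slc40a1, the transcription factors Spic and Maf, and Sdc3, Ccr3, Igf1, Ms4a7, Lgmn and Kcnj10. The class was named with 18 macrophage markers, so their presence is a description only. UMIs of 17 of them were found in its ground cells and of all 18 in its running cells. Their summed levels were 16050 and 16080 CPM (a gene's UMIs over all UMIs of the same cells, on the usual counts-per-1M scale). The marker Vsig4 had 0 UMIs in ground and 2 in running. Markers of other classes were found there too. All 8 immature neutrophil markers had UMIs in both libraries and summed to 19750 and 38920 CPM. Erythroid markers summed to 20980 CPM in ground and 794 in running. Its cells were shallow, with median depths of 770.5 and 928 UMIs, close to the minimum of 500 UMIs, which can therefore set these shares. With a minimum of 1000 UMIs, 20 and 97 cells remained and the ratio was 4.61. In an earlier version of the clustering, which is not kept, the class was larger in both libraries and more so in ground, which made the ratio lower than any in the range over seeds of the version used.

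Over all cells, each of the 9 genes had more UMIs in running than in ground. C1qa had 539 UMIs in ground and 1498 in running, C1qb 490 and 1100, and C1qc 320 and 899. Cd5l had 40 and 468 UMIs, and Fcna 126 and 612. Axl had 235 and 729 UMIs and Mertk 53 and 160. Vcam1 had 1088 and 2453 UMIs, and Mrc1 268 and 701. In CPM, the running level was at least 2-fold the ground level for 9 of 9 genes, where 2.48% of the 13738 genes with at least 50 UMIs were higher by that size and 0.539% were lower. The median log2 ratio was 1.56 for the 9 genes and 0.08 for all genes. Cd5l had the highest log2 ratio, 3.62 (3.15 to 4.12), from 0.487 CPM in ground to 5.97 in running. Fcna followed with 2.35 (2.07 to 2.64), and the other 7 genes lay between 1.23 for C1qb and 1.70 for Axl. In a suspension of mixed cells, more cells of a type and more RNA per cell cannot be told apart from such totals, so the classes were examined next.

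The macrophage-like class had the highest level of every one of the 9 genes in both libraries. C1qa reached 2960 CPM in ground and 2510 in running, against 1.70 and 1.84 CPM in B cell-like cells, a class that should lack the gene. A C1qa UMI was found in 52 of 60 ground cells (86.7%) and 179 of 217 running cells (82.5%) of the macrophage-like class, and in 0.592% of B cell-like ground cells, although B cell-like cells were deeper, with medians of 3181 and 3475 UMIs. For Cd5l and Mertk, B cell-like cells had 0 UMIs in both libraries. The class held 57.9% of all C1qa UMIs in ground and 81.8% in running, 75.0% and 87.2% of Cd5l, 63.5% and 84.2% of Fcna, and 60.4% and 91.9% of Mertk. It held less of Vcam1, 31.3% and 54.7%, and of Axl, 37.9% and 67.6%. The map of levels by class shows the macrophage-like row standing above the other classes for all 9 genes.

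**Figure D1:**
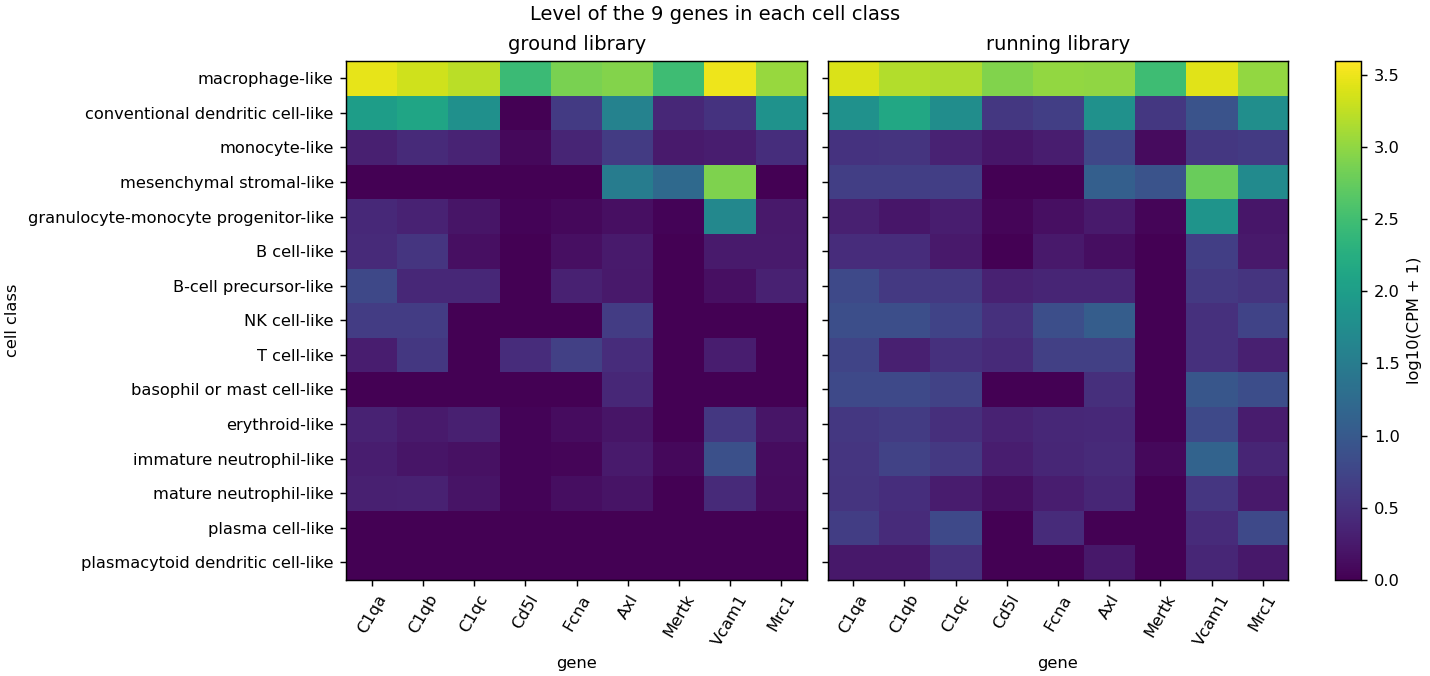
Level of each gene (columns) in each cell class (rows), as log10(CPM + 1) by colour, in the ground library (left) and the running library (right). The macrophage-like row is the brightest in every column, C1q genes, Axl and Mrc1 are next in conventional dendritic cell-like cells, and Vcam1 is next in mesenchymal stromal-like and granulocyte-monocyte progenitor-like cells.

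Within the macrophage-like class the 9 genes did not share the direction seen over all cells. The median log2 ratio of running over ground was -0.11 for the 9 genes and -0.06 for the 1817 genes with at least 50 UMIs. Only Cd5l was at least 2-fold higher, where 6.38% of those 1817 genes were higher by that size and 2.31% were lower. Giving both libraries the class proportions of ground brought the median over all cells from 1.56 to 0.33. Without the macrophage-like cells, an alternative chosen after seeing the data, that median was 0.62.

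Among the C1q genes, C1qa had 312 UMIs in the 60 ground cells (2960 CPM) and 1226 in the 217 running cells (2510 CPM), a log2 ratio of -0.24 (-0.42 to -0.05). C1qb had 2211 and 1507 CPM, a ratio of -0.55 (-0.77 to -0.33), and C1qc 1698 and 1419 CPM, a ratio of -0.26 (-0.50 to -0.01). These values moved with neutrophil transcripts: S100a8, S100a9, Ltf, Camp, Ngp, Lcn2 and Retnlg made up 7.65% of the class's UMIs in ground and 15.5% in running. The median share per cell was 1.32% in ground and 1.07% in running. Of the 8060 ground UMIs of these genes, 1 cell held 3592 and another 2464. The highest running cell held 9538 of 75660. In the 55 ground and 180 running cells with under 10% of such transcripts, a limit chosen after seeing the data, C1qa stood at 0.05, C1qb at -0.21 and C1qc at 0.05, so the lower C1qa and C1qc levels of running were not seen in those cells. Haemoglobin transcripts made up 2.06% of the class's UMIs in ground and 0.0667% in running, but 2070 of the 2167 ground haemoglobin UMIs came from 1 cell. That cell had 13331 UMIs in all, and the ground cell with the most neutrophil transcripts had 17498. The mean ground cell of the class had 1757, so these cells weigh on every ground CPM given for it. The part of either transcript group in the C1q values was not tested.

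The secreted proteins Cd5l and Fcna differed from C1q. Cd5l had 30 UMIs in the ground cells (285 CPM) and 408 in the running cells (835 CPM), a log2 ratio of 1.55 (1.02 to 2.14). A Cd5l UMI was found in 12 of 60 ground cells (20%) and 97 of 217 running cells (44.7%), and after thinning every cell to 500 UMIs the shares were 13.3% and 27.0%. The running cells were higher at each depth: 660 against 411 CPM in cells under 1000 UMIs, 1034 against 272 CPM in cells from there to under 3000 UMIs, and 828 against 232 CPM in deeper cells. The ground values at these depths rest on 11, 5 and 14 UMIs. Fcna had 80 and 515 UMIs, 759 CPM in ground and 1054 in running, a log2 ratio of 0.47 (0.13 to 0.83). In cells with under 10% neutrophil transcripts the ratios were 2.17 for Cd5l and 0.89 for Fcna.

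The receptors showed smaller differences. Axl had 89 and 493 UMIs in the class, 844 CPM in ground and 1009 in running, and its log2 ratio of 0.26 had an interval that included 0 (-0.07 to 0.60). Mertk had 32 and 147 UMIs, 304 and 301 CPM, a ratio of -0.01 (-0.57 to 0.59). A difference in Mertk of up to about these bounds was not detectable at this depth. Mrc1 had 118 and 505 UMIs, 1120 and 1034 CPM, a ratio of -0.11 (-0.41 to 0.19). Vcam1 had 341 and 1341 UMIs, 3235 and 2746 CPM, a ratio of -0.24 (-0.41 to -0.06), which became 0.21 in the cells with under 10% neutrophil transcripts. Axl in those cells was at 0.70, Mertk at 0.43 and Mrc1 at 0.19.

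**Figure D2:**
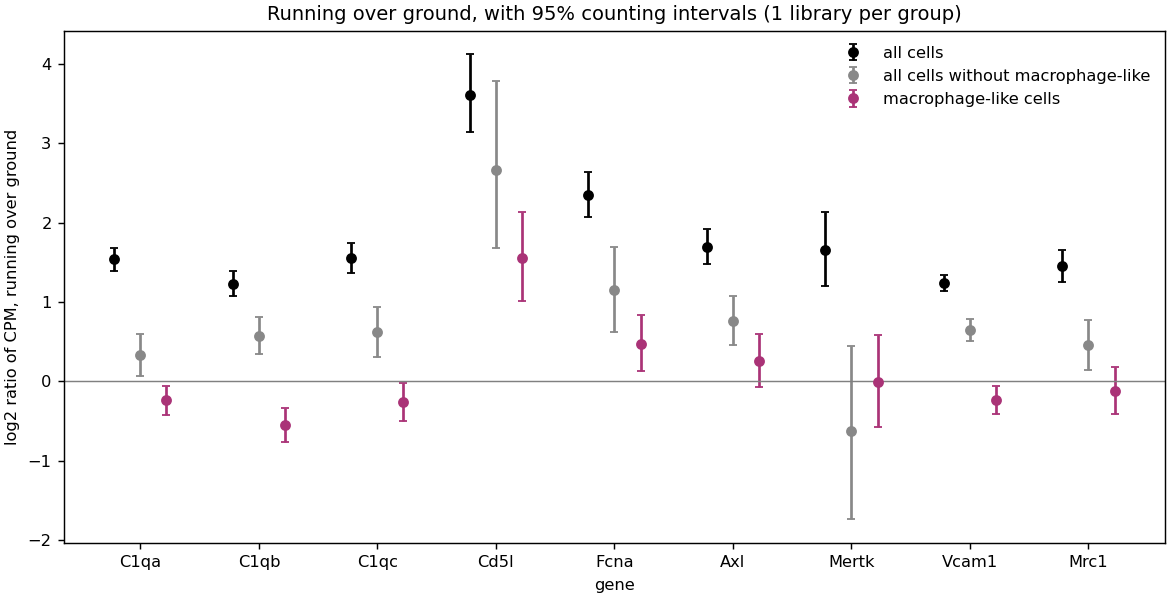
Log2 ratio of CPM, running over ground, for each gene over all cells (black), over all cells without the macrophage-like class (grey) and within that class (purple). Points are ratios of summed UMIs from 1 library per group and bars are 95% counting intervals. All 9 black points lie above 1, and of the purple points only Cd5l does.

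Co-detection was described by the number of the 9 genes with at least 1 UMI in a cell. The median macrophage-like cell had 5 of the 9 genes in both libraries. At least 5 genes were seen in 32 of 60 ground cells (53.3%) and 139 of 217 running cells (64.1%), and all 9 in 2 ground and 21 running cells. At least 3 genes were seen in 88.3% and 86.2% of macrophage-like cells, against 0.248% and 0.801% of cells outside the macrophage-like and conventional dendritic cell-like classes. All 12 ground cells with Cd5l also had C1qa, as did 93 of 97 running cells with Cd5l. The reverse share was lower: 12 of 52 ground cells with C1qa had Cd5l (23.1%, 12.5 to 36.8), and 93 of 179 running cells (52.0%, 44.4 to 59.5). Cells with both C1qa and Cd5l were 20% of the class in ground and 42.9% in running. After thinning to 500 UMIs they were 12.6% and 23.5%. Of cells with Mertk, 10 of 10 in ground and 37 of 40 in running had C1qa.

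**Figure D3:**
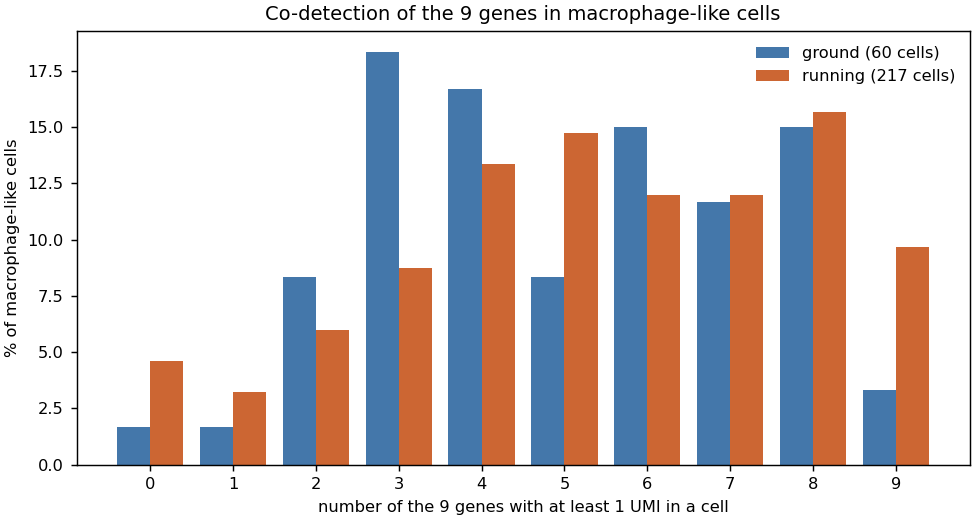
Share of macrophage-like cells (bars, percent) by the number of the 9 genes with at least 1 UMI in the cell, for 60 ground and 217 running cells. Cells with all 9 genes were 3.33% in ground and 9.68% in running, and depth differed between the libraries, with medians of 770.5 and 928 UMIs.

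C1q genes, Axl and Mrc1 were also seen in conventional dendritic cell-like cells, a class led by Cd209a, Clec10a and genes of MHC class II presentation. It held 134 ground and 126 running cells. The edges of this class were unstable: over 20 runs of the clustering that differed only in the random seed it held from 78 to 155 ground and from 62 to 174 running cells, so its values are described and no difference between the libraries is read from them. The summed C1q count was 375 UMIs in ground (292 CPM) and 288 in running (268 CPM), a log2 ratio of -0.12 (-0.35 to 0.10) that ranged from -0.80 to -0.12 over the 20 runs. These UMIs came from few cells: 21 of 134 ground and 18 of 126 running cells had any C1q UMI, and 14 and 15 cells had at least 3. The limits of 3 and 10 C1q UMIs were chosen after seeing the data. C1qa, C1qb, C1qc, Axl and Mrc1 reached 50 UMIs there, and 0 of these 5 genes were 2-fold higher or lower, where 1.2% of 5436 genes were higher by that size and 1.07% lower. Mrc1 had 88 and 63 UMIs, and Axl 50 and 71.

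In the C1q-bearing cells of this class some of the other members were rare and others were not. Of the 14 ground cells with at least 3 C1q UMIs, 0 had Cd5l, 0 had Fcna and 2 had Vcam1. Of the 15 running cells, 2 had Cd5l, 2 had Fcna and 5 had Vcam1. In macrophage-like cells with at least 3 C1q UMIs, Vcam1 was seen in 39 of 50 ground and 140 of 181 running cells, although these cells were shallower, with medians of 823.5 and 945 UMIs against 8692 and 7903. Axl was seen in 9 of the 14 ground and 13 of the 15 running dendritic cell-like cells, Mrc1 in 6 and 5, and Mertk in 1 and 3. In such macrophage-like cells Axl was seen in 28 of 50 and 115 of 181, and Mrc1 in 29 and 112. Of the 18 macrophage markers, 11 were found in the C1q-bearing dendritic cell-like cells of ground and 14 in those of running. Apoe had 484 and 598 UMIs, Selenop 33 and 51, Maf 35 and 24, Adgre1 22 and 21, Hmox1 9 and 56, and Spic 3 and 8. Apoe stood at 4706 and 4571 CPM, against 1445 and 2426 in cells of the class without C1q UMIs. Cd163, Timd4 and Vsig4 had 0 UMIs in both libraries. In the macrophage-like class Timd4 had 2 and 39 UMIs, and Vsig4 0 and 2. Of the 11 dendritic cell markers, 4 were found in the C1q-bearing dendritic cell-like cells of ground and 6 in those of running. Zbtb46, Xcr1 and Ccr7 were at 0, while Clec10a had 34 and 21 UMIs, Batf3 18 and 8, and Cd209a 40 and 2. Dendritic cell markers summed to 914 and 352 CPM, macrophage markers to 6777 and 7055, and monocyte markers to 4618 and 4555. The monocyte marker Ccr2 was found in all 14 ground and all 15 running cells. In cells of the class without C1q UMIs, dendritic cell markers summed to 859.5 and 817.6 CPM, monocyte markers to 5500 and 6799, and macrophage markers to 2269 and 3349. Monocyte markers summed to more than dendritic cell markers in both sets of cells, and the class name rests on its leading genes.

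The C1q chains were represented differently in the classes. C1qa made up 43.1% of C1q UMIs in macrophage-like ground cells (39.5 to 46.8) and 46.2% in running cells (44.3 to 48.1), and C1qb 32.2% (28.8 to 35.7) and 27.7% (26.0 to 29.5). In conventional dendritic cell-like cells C1qb was the more abundant count, with 44.8% in ground (interval from 39.7) and 54.2% in running (interval from 48.2), and C1qa had 33.9% (29.1 to 38.9) and 24.3% (19.5 to 29.7). The intervals of the classes did not overlap in either library for C1qa or for C1qb. Since many of the dendritic cell-like UMIs share a cell, these intervals are too narrow as measures of spread between cells. Counted by cell, C1qb exceeded C1qa in 11 of 14 ground and 13 of 15 running dendritic cell-like cells with at least 3 C1q UMIs, and in 18 of 50 and 49 of 181 such macrophage-like cells.

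**Figure D4:**
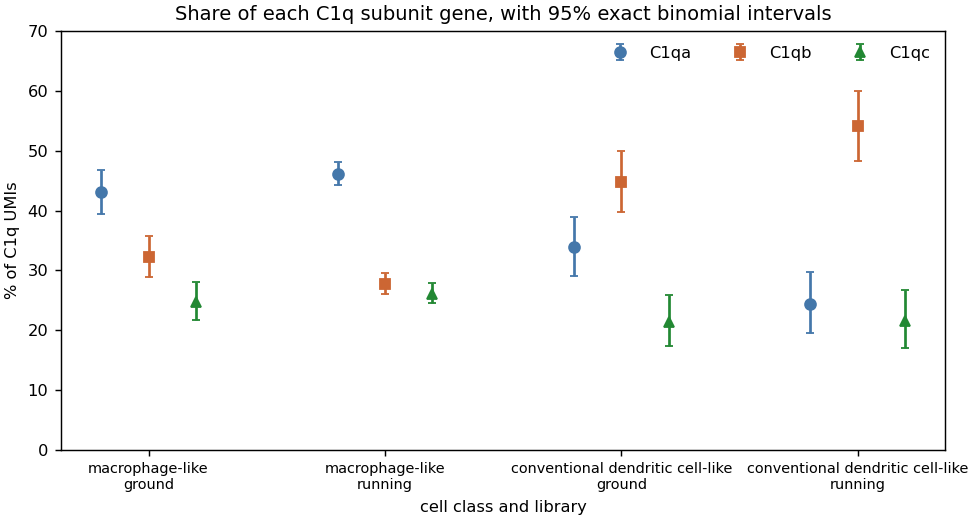
Share of all C1q UMIs (percent) held by C1qa, C1qb and C1qc in macrophage-like and conventional dendritic cell-like cells of each library. Points are shares of summed UMIs and bars are 95% exact binomial intervals for counting error. C1qa is the highest point in both macrophage-like columns and C1qb in both dendritic cell-like columns.

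Vcam1 had a wider distribution than the other 8 genes. Mesenchymal stromal-like cells had the next level after the macrophage-like class, 806 CPM in ground (51 UMIs in 23 cells) and 605 CPM in running (163 UMIs in 46 cells), and the interval of the log2 ratio, -0.41, included 0 (-0.88 to 0.07). Granulocyte-monocyte progenitor-like cells, led by the granule protease genes Elane, Prtn3 and Ctsg and by Mpo, had 475 UMIs in 390 ground cells (46.6 CPM) and 541 UMIs in 252 running cells (72.2 CPM). Running exceeded ground there by 0.63 on the log2 scale (0.45 to 0.81). Over the 20 runs of the clustering this value lay between 0.52 and 0.63, although the class held from 261 to 715 ground and from 169 to 521 running cells. In these deep cells, with medians of 27024 and 29295 UMIs, a Vcam1 UMI was found in 131 of 390 ground (33.6%) and 113 of 252 running cells (44.8%). Among cells with at least 3000 UMIs the shares were closer, 125 of 315 ground (39.7%) and 113 of 242 running cells (46.7%). Their levels were 46.4 and 72.3 CPM. The class held 43.7% of all Vcam1 UMIs in ground and 22.1% in running. The other 8 genes were each at or below 1.57 CPM in that class in both libraries.

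Members were also counted at low levels in cells of other lineages, at higher levels in running in some classes and not in others. The summed C1q level of erythroid-like cells was 3.10 CPM in ground and 8.13 in running. For immature neutrophil-like cells it was 1.98 and 9.55 CPM. For B cell-like cells it was 4.66 and 4.41 CPM. Among erythroid-like cells Cd5l had 1 UMI in ground and 18 in running, and among immature neutrophil-like cells 2 and 16. Mertk had 21 UMIs in ground and 13 in running outside the macrophage-like class, a log2 ratio of -0.62 (-1.74 to 0.45), opposite in sign to its value of 1.66 over all cells. The part of free RNA and of cells caught together in these counts was not tested.

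Likeness of pattern was measured as Pearson's r of log2(CPM + 10) over the 30 sums of 15 classes in 2 libraries, among 11613 genes with at least 200 UMIs. Points of 1 library share its depth and free RNA, and the macrophage-like sums set most of each r, so r is given as a description. For C1qa the nearest genes were C1qc (r = 0.998), Ms4a7 (0.991) and C1qb (0.991). For Cd5l they were Fcna (0.993), Spic (0.988) and Cd163 (0.983), and for Fcna they were Cd5l, Spic (0.990) and Hpgds (0.981). Axl was nearest to Nr1h3 (0.985), Mertk to Spic (0.968) and Mrc1 to C1qc (0.973). Vcam1 had lower values, with Igf1 (0.955), Mpzl1 (0.941) and Pparg (0.933) nearest.

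Other genes of these pathways were counted by list over all cells, where 2.48% of all genes tested were at least 2-fold higher in running and 0.539% were lower. Most genes of each list did not reach that size, but the share of higher genes in some lists was above that of all genes. Of 9 further complement cascade genes with at least 50 UMIs, 1 was at least 2-fold higher in running and 0 were lower, with a median log2 ratio of -0.13. That gene was Cfb, complement factor B, with 83 and 173 UMIs and a ratio of 1.13 (0.74 to 1.52), and C3, the central component, stood at -0.18. Of 14 bridging ligands and receptors of dead-cell uptake, 3 were higher and 0 lower. They were Gas6, the bridging ligand of Axl and Mertk, at 1.60 (1.32 to 1.90), Thbs1 at 1.04 and Stab2 at 1.10 from 20 and 41 UMIs. In macrophage-like cells Gas6 had only 3 and 15 UMIs, Thbs1 0 and 24, and Stab2 6 and 12. Gas6 was a leading gene of the mesenchymal stromal-like cluster, with 23 ground and 46 running cells. Thbs1 was a leading gene of a mature neutrophil-like cluster (199 and 1172 cells) and an immature one (710 and 611). The part of these cells in the ratios was not tested. Pros1, which encodes protein S, stood at -0.60. Of 19 engulfment and cargo genes, 1 was higher, Pparg at 1.32 (0.90 to 1.76), and their median was 0.08. Of 7 partners of Vcam1 and other lectins, only Cd209f was higher, with 4 and 49 UMIs, and Itga4 stood at 0.05. Find-me and do-not-eat-me signals had 0 of 9 genes past that size.

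Among 14 iron recycling genes, 2 were at least 2-fold higher over all cells: Spic at 2.67 (2.25 to 3.11) and Cd163 at 2.21 (1.80 to 2.63). Of 10 macrophage transcription factors only Spic was. Within the macrophage-like class, where 6.38% of all genes tested were higher by that size and 2.31% lower, 2 of 12 measured iron recycling genes were higher and 0 lower. They were Hmox1, haem oxygenase, with 1698 and 3677 CPM and a log2 ratio of 1.12 (0.89 to 1.34), and Cd163, the haemoglobin scavenger receptor, with 18 and 181 UMIs and 1.12 (0.42 to 1.91). Slc40a1, the iron exporter, stood at 0.92 and Adgre1 at -0.73. Since Hmox1, Spic and Slc40a1 lead this cluster, the cells were also clustered with the 9 genes, macrophage markers and iron list left out. The macrophage markers still named the redrawn class, and Hmox1, Spic and Slc40a1 were again among its leading genes. It gave 1.03 for Hmox1, 1.27 for Cd163, 0.83 for Slc40a1 and -0.88 for Adgre1. In the macrophage-like class as first drawn, 0 of 14 engulfment genes and 0 of 3 complement cascade genes passed that size. The neutrophil list had 4 of 7 genes higher by that size and the haemoglobin list 4 of 4 lower, with most ground haemoglobin UMIs in the 1 cell given above.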

How the data were processed

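The authors deposited raw counts of UMIs per gene and barcode for 2 libraries, with Cell Ranger 5.0.0 as the writer per the file headers. The submitters' processing notes name STAR and the build mm10, and the kit was Chromium 3′ v3 per the labels' protocols. Total depth was 85014860 UMIs in 9162 ground barcodes and 79990530 in 9473 running barcodes.

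Barcodes with at least 500 UMIs, at least 250 genes and at most 10% mitochondrial UMIs were kept, which removed 253 and 293. Scrublet in scanpy 1.11.5 called 243 and 100 doublets, which were removed (thresholds 0.242 and 0.322). Cells were scaled to 10000 counts and log-transformed, and 2000 variable genes without the 9 members gave 30 components and 15 neighbours. Leiden clustering (igraph 0.11.9, resolution 1, no batch integration) was run to convergence from 20 seeds, and the partition of highest modularity was kept. Clusters were named by markers among their 10 leading genes, with at least 3 markers detected. Clusters were compared as CPM of summed UMIs. Intervals were exact Poisson, exact binomial or conditional binomial, at 95%, and cover counting error only. The genes named are all members, from each list those of largest ratio with at least 100 UMIs, and the 3 most alike genes per member. Stab2, Cd209f, C3, Itga4, Pros1, Slc40a1 and Adgre1 were named after their values were seen.

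The members, lists and markers were chosen with earlier results of these data known. In all, 4 versions of the clustering were examined. Earlier versions changed with the numerical library, including the sizes of the macrophage-like and conventional dendritic cell-like classes. The cause was not tested. The version used computes neighbour distances exactly. Its rule does not use the members, but it was set after results of earlier versions had been seen. The intervals were tested on simulated independent counts, which leave out UMIs that share a cell, and thinning was tested on random draws. Some genes of the lists are not reported here.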

Additional observations from a re-analysis of the deposited data

Results flagged for a closer look

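Members were also counted in the 253 ground and 293 running barcodes that the filter removed, which entered only the alternative over all deposited barcodes. Their levels there are given without the share of all genes beside them, and some ground values rest on few UMIs. C1qa stood at 193.5 CPM in running against 106.2 in ground, C1qb at 127.8 against 49.6, and C1qc at 99.59 against 59.0. Cd5l stood at 65.77 CPM against 4.72, from 35 and 2 UMIs, and Axl at 75.16 against 18.9. Mertk stood at 16.91 CPM from 9 UMIs, with 0 in ground. Vcam1 stood at 219.8 CPM against 80.2, and Mrc1 at 77.04 against 23.6. Fcna stood at 78.9 against 68.4 CPM, and its counting interval in running included the ground value.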

How the results depend on the processing

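No paired analysis was possible because each group has 1 library and no test was made. Over all cells the median log2 ratio of the members, 1.56, moved to 0.33 with the class proportions of ground and, in an alternative chosen after seeing the data, to 0.62 without macrophage-like cells, where Mertk turned from 1.66 to -0.62. The other 8 alternatives for that median left it within its counting interval. In macrophage-like cells the median, -0.11, became 1.64 when the class was replaced by all cells with at least 3 macrophage markers, a rule that took 1717 ground and 1811 running cells and a ratio of shares of 1.01. It became 0.21 in cells with under 10% neutrophil transcripts, which was also chosen after seeing the data. Over the 14 settings tried for single genes in that class, Cd5l lay between 1.23, as a mean of CPM over cells, and 3.78. Fcna lay between 0.30, with a minimum of 1000 UMIs, and 2.52. Both highest values came from the rule of at least 3 macrophage markers. The ratio of shares, 3.45, was 4.61 with a minimum of 1000 UMIs. Co-detection of C1qa and Cd5l in running, 42.9%, was 23.5% after thinning to 500 UMIs. Over the 20 clustering seeds the macrophage-like class held 59 or 60 ground and 212 to 222 running cells, the ratio of shares lay between 3.37 and 3.54, Cd5l between 1.45 and 1.57 and Fcna between 0.38 and 0.49. An earlier version of the clustering, which changed with the numerical library, drew this class larger in both libraries and more so in ground. The ratio of shares there lay below 3.37, by enough to count as a change of its size, and those ranges do not cover every partition met. The C1q ratio in dendritic cell-like cells was -0.39 with members kept in the clustering, -0.42 with 2 iterations from 1 seed and -0.69 as a mean over cells, all added after seeing the data, and at resolution 0.5 no class took that name. Scaling by the median of ratios shifted all values by 0.07 over all cells and -0.06 in macrophage-like cells.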
